A study of Mus musculus with 6 samples.

Results

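Open chromatin shared by neighbouring genes was examined in an immortalised line of mouse atrioventricular cushion mesenchymal cells. The members are merged ATAC-seq regions on the autosomes that held a peak in each of 5 libraries and lay within 1 kb of the ends of 2 or more different protein-coding genes. Of 48279 merged regions, 12139 (25.1%) were in all 5 lists, and 1244 of these met the rule. Another 5544 shared regions lay at the end of 1 gene and 5351 at none. The members were chosen by the peak calls of all 5 libraries, so their presence in every list is a description and not a result.

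ATAC-seq uses a transposase that cuts and tags accessible DNA, so that peaks mark open chromatin. The cells carry the H-2Kb-tsA58 transgene, a temperature-sensitive SV40 large T antigen under a major histocompatibility promoter that is used to immortalise cells, and all were at passage 6. They were kept for 48 h in 5.5 mM glucose (normal glucose, replicates 1, 2 and 3) or 25 mM glucose (high glucose, replicates 1, 2 and 3), with 54000 cells for each library. The series asks how maternal diabetes relates to congenital heart disease, and both arms share the line, the transgene and the passage.

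The 5 lists used held 24263 and 40350 peaks in normal glucose (replicates 1 and 3) and 22156, 25020 and 22598 in high glucose. Normal-glucose replicate 2 had 66 peaks and was left out by the rule. Depth is unknown because peak lists carry no read totals. Nothing in the labels says that the replicates were separate cultures, so each p-value reflects the spread among libraries, which may be technical. Of 15 mesenchymal markers, 9 had a shared open region at an end, namely Vim, Fn1, Cdh2, Cdh11, Tagln, Acta2, Snai1, Snai2 and Sox9. Col1a1, Col1a2, Postn, Twist1, Pdgfra and Pdgfrb had none. The counts were 0 of 8 endothelial, 0 of 8 heart muscle and 1 of 7 blood markers (Spi1). The share over all protein-coding genes was 36.3% (7500 of 20665). None of these 38 markers lay at a member.

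Mammalian genes often lie close together, and pairs that start side by side on opposite strands can be transcribed outward from 1 shared stretch, a bidirectional promoter. Such promoters are typically rich in CpG, mostly lack a TATA box and commonly serve housekeeping genes of DNA repair, mitochondria and protein synthesis. Common motifs at such promoters include the GC box bound by SP1, the CCAAT box bound by NF-Y and the ETS motif bound by GABPA. Below, the head of a gene is its annotated outer 5′ end and its tail is the other end. Pairs are head-to-head when the genes run away from each other, tail-to-tail when they run toward each other, and head-to-tail when 1 follows the other on the same strand.

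The stretches between the 2 heads of 10 head-to-head pairs are shown because these pairs span the strongest and the weakest members and the gene classes described below. They were read from RefSeq's promoter table, build GRCm38.p6 (mm10 coordinates), and are written 5′ to 3′. Capitals mark matches, on either strand, to the GC box (GGGCGG), to the CCAAT box (CCAAT) or, in Mrpl49/Fau, to the cAMP response element (TGACGTCA).
Atm/Npat, chr9:53536829-53536888, + strand: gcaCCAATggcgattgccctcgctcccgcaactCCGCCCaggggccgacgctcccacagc
Pcna/Cds2, chr2:132253181-132253337, + strand: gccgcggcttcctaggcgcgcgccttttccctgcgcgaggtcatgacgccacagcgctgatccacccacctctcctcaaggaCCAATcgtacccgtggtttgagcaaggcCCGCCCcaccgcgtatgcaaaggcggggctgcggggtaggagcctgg
Recql/Golt1b, chr6:142387101-142387210, + strand: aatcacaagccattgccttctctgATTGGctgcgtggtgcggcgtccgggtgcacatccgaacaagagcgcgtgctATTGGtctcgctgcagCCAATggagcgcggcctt
Lnx2/Polr1d, chr5:147076573-147076714, + strand: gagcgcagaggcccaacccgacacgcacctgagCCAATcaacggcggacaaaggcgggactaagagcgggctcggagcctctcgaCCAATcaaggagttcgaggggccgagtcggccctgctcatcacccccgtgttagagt
Ccdc92/Zfp664, chr5:124862500-124862704, + strand: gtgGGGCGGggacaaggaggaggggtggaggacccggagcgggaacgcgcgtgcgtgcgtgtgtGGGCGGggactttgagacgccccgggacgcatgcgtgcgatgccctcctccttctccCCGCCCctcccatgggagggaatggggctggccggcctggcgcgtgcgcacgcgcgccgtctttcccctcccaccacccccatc
Rpgrip1l/Fto, chr8:91313292-91313366, + strand: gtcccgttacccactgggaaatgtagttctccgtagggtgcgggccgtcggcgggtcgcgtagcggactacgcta
Mrpl49/Fau, chr19:6057756-6057946, + strand: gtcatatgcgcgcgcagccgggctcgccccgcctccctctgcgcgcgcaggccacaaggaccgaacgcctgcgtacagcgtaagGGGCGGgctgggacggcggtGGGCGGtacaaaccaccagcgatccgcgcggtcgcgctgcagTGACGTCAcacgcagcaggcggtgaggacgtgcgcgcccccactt
H2bc7/H2ac7, chr13:23574208-23574380, + strand: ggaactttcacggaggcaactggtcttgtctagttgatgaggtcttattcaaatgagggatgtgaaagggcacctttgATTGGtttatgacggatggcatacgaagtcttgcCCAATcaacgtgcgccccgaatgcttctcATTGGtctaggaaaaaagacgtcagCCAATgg
H2ac12/H2bc12, chr13:22035644-22035820, + strand: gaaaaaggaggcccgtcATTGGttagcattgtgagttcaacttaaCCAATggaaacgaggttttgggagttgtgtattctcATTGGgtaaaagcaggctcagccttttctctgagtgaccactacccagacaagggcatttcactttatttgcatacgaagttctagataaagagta
Gatc/Triap1, chr5:115341162-115341230, + strand: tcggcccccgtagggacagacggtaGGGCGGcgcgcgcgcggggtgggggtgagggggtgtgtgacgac

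Each of these stretches lies inside a member region. The DNA repair helicase gene Recql and its neighbour Golt1b are separated by 110 bases with 3 CCAAT boxes and no GC box. Ccdc92 and Zfp664 are separated by 205 bases with 3 GC boxes and no CCAAT box. The H2bc7/H2ac7 stretch holds 4 CCAAT boxes in 173 bases, and the H2ac12/H2bc12 stretch holds 3 in 177 bases. The 75 bases between Rpgrip1l, a gene of the ciliary transition zone, and Fto, an RNA demethylase gene, match none of the 11 motifs searched. Such a match is a description of the sequence, not a bound site.

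The rule used both presence in all lists and gene ends, and a region merged from more lists is longer and reaches more ends, so the following shares are a description. Of the 2275 merged regions at paired ends in any list, 54.7% were in all 5 (1244, Wilson 95% interval 52.6 to 56.7%), and 18.2% were in only 1. At the end of 1 gene 47.0% of 11796 regions were in all 5, and away from gene ends 15.6% of 34208. Another 224 paired-end regions were in 4 of 5 lists. The missing list was high-glucose replicate 1 for 82 of them, normal-glucose replicate 1 for 66, high-glucose replicate 3 for 43, high-glucose replicate 2 for 30 and normal-glucose replicate 3, which has the longest list, for 3. Regions are not replicates, and intervals cover counting error only.

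**Figure D1:**
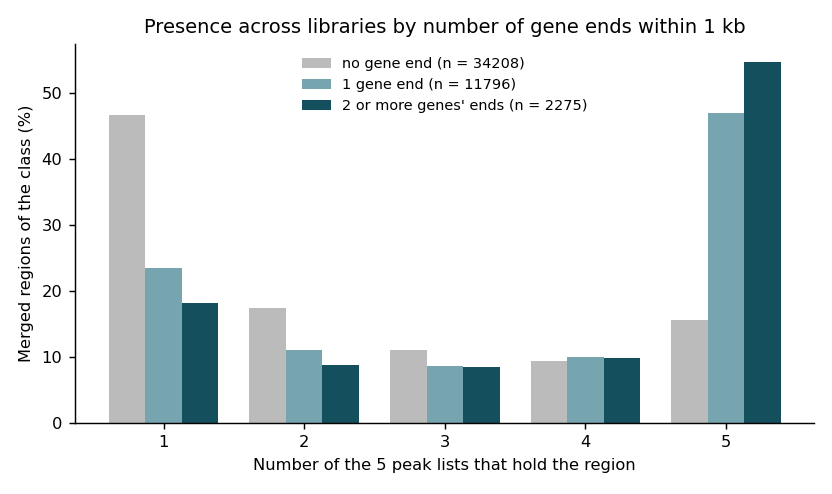
Percent of merged autosomal regions (y axis) found in 1 to 5 of the 5 peak lists (x axis), for regions within 1 kb of no gene end, 1 gene end, or the ends of 2 or more genes. The bar for all 5 lists reaches 54.7% for paired ends, 47.0% for 1 end and 15.6% for none.

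Most members lay where genes start. Strand was known for every gene at 933 members, and 923 of these (98.9%) had a head within 1 kb. Shared regions at 1 gene end were nearly as often at a head (97.6% of 4525 with known strand), so this share is near that of other shared gene-end regions. Of all 1244 members, 669 (53.8%) were head-to-head, 206 head-to-tail and 10 tail-to-tail, while 17 were at heads of 1 strand, 15 at a head and a tail of opposite strands and 16 at 3 or more genes of known strand. The other 311 had a gene of unknown strand. A total of 1222 members lay at exactly 2 genes and 22 at 3. The members named 1176 different gene groups, and 67 groups had 2 or more member regions. Only Cbx5/Hnrnpa1, the genes of heterochromatin protein HP1 alpha and an RNA-binding hnRNP, had 3. A percentile here is the rank of a region's strongest peak, by the authors' −log10 p, within its own list, with 100 the strongest. Over the 5 libraries the lowest percentiles of the 3 regions were 83.6, 56.9 and 56.3.

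The members were 367.5 bp long at the median (quartiles 284 and 472.5 bp, range 126 to 1130 bp). They covered both gene ends in 554 cases (44.5%), and the farther end was 54 bp away at the median and over 500 bp in 239. Just inside the 1 kb limit were Zfp668/Zfp646 at 1000 bp, Tapbp/Zbtb22 at 999 bp and Zfp609/Trip4 at 997 bp. Just outside were B9d2/Tmem91 at 1012 bp and Ewsr1/Rhbdd3 and Chuk/Cwf19l1, both at 1016 bp. Members per 100 protein-coding genes ranged from 3.20 on chromosome 6 to 9.50 on chromosome 19.

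Orientations were next compared without the rule of 5 lists, over all annotated pairs of gene ends within 1 kb of each other. A pair was scored as open in a library when a peak lay within 1 kb of both ends. Strand was not known for both genes in 1271 of the 3468 pairs (36.6%), which enter no orientation class; 22.2% of them were open in all 5 libraries and 67.3% in none. Head-to-head pairs were open far more often than tail-to-tail pairs in every library. The paired ends are heads in the first kind and tails in the second. The contrast therefore does not separate orientation from the presence of a head. Of 872 head-to-head pairs, 82.0% and 91.1% were open in normal-glucose replicates 1 and 3, and 81.7%, 86.6% and 84.6% in high-glucose replicates 1, 2 and 3. Of 706 tail-to-tail pairs, 4.11%, 5.38%, 2.83%, 3.54% and 3.12% were open in the same order. The groups of values did not overlap. The difference was 81.4 ± 3.16 percentage points (SD, n = 5 libraries), with p = 0.063 by a two-sided exact sign-flip permutation test, the smallest p that 5 libraries allow (adjusted p = 0.104 over 5 tests).

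Of the head-to-head pairs, 650 (74.5%) were open in all 5 libraries, beside 33.8% of all 3468 pairs with ends this close. The share was 37.9% for head-to-tail pairs (188 of 496) and 1.70% for tail-to-tail pairs (12 of 706). In the smaller classes it was 64.9% for heads of 1 strand (24 of 37) and 2.22% for tails of 1 strand (1 of 45). For a head and a tail of opposite strands it was 36.6% (15 of 41). Among head-to-head pairs it was 76.7% with ends up to 100 bp apart, 78.3% over 100 and up to 300 bp and 66.7% over 300 and up to 1000 bp. In 67 head-to-head pairs (7.68%) no library had a peak near both ends, against 662 tail-to-tail pairs (93.8%).

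**Figure D2:**
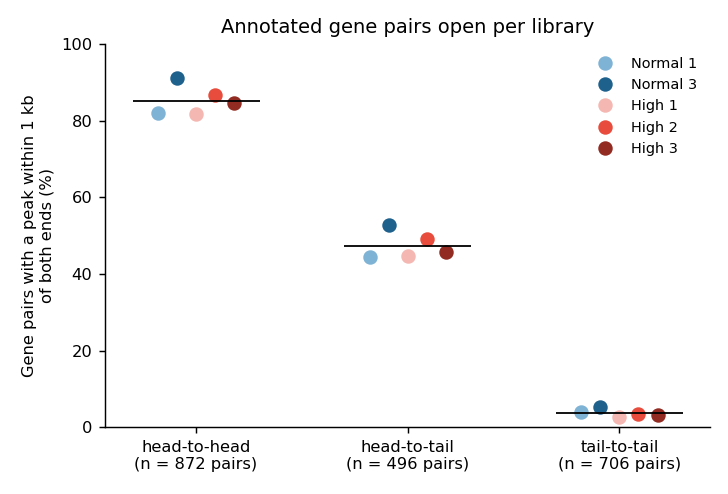
Percent of annotated gene pairs with a peak within 1 kb of both ends (y axis), by orientation (x axis). Each point is 1 library and the line is the mean of 5; head-to-head values lie between 81.7 and 91.1% and tail-to-tail values between 2.83 and 5.38%.

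The 10 tail-to-tail members were Git1/Trp53i13, Eef2kmt/Alg1, Tnfrsf12a/Hcfc1r1, Duox1/Shf, Dcst2/Zbtb7b, Rhoc/Mov10, Cap1/Ppt1, Dcdc2b/Tmem234, Inppl1/Phox2a and Ints14/Hacd3. None had a start of the RefSeq promoter table within 1 kb. Inppl1, a lipid phosphatase gene, and Phox2a, a neuronal homeobox gene, shared the region with the most even rank of the 10, at percentiles between 68.7 and 84.0. Duox1/Shf ranged from 8.53 in high-glucose replicate 3 to 81.8 in high-glucose replicate 2.

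Position within head-to-head members was examined next. In 438 of the 669 the annotated starts were apart, by 105 bases at the median (quartiles 50 and 224.75, at most 1537), and in 231 the genes overlapped at their heads, by 259 bases at the median. The open region held both starts in 400 (59.8%). The summit, the point of highest signal, lay within 200 bp of the midpoint between the starts in 69.2 to 71.0% of members in each library.

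Summits were often not between the starts. Of the 438 members with starts apart, the summit lay between them in all 5 libraries in 120 (27.4%) and in none in 167 (38.1%). The share in all 5 was 10 of 211 with starts under 100 bases apart and 54 of 129 from 100 to under 250. It was 39 of 64 from 250 to under 500 and 17 of 34 beyond. A wider gap holds a summit more easily by its length alone, so the rise up to 500 bases is a description. By the median summit of the 5 libraries, 231 lay outside, 63 bp past the nearer start at the median. They were split between the side of the reverse-strand gene (120) and that of the forward-strand gene (111).

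**Figure D3:**
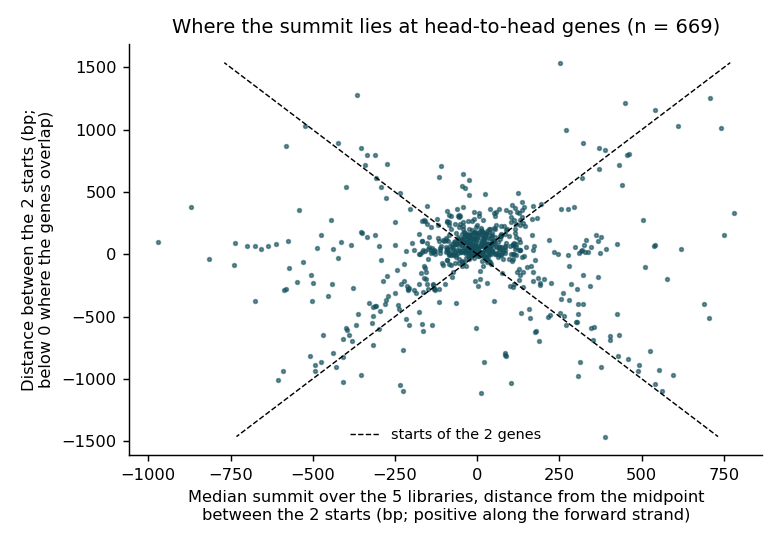
Distance between the 2 annotated starts (y axis, bp) against the distance of the median summit from their midpoint (x axis, bp) for the 669 head-to-head members, 1 point each. Dashed lines mark the 2 starts; most points cluster near the midpoint, while 231 of the 438 members with starts apart lie outside the lines.

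At head-to-tail members, where the tail of 1 gene meets the head of the next, the region was nearer the head in 179 of 206 (86.9%) and lay over it in 145. It was nearer the tail in 15 and equally distant in 12. Cpne9/Brpf1 is such a pair. Brpf1 encodes a scaffold of a histone acetyltransferase complex, and the region chr6:113306328-113306969 was at percentiles of 99.6, 99.6, 99.4, 99.5 and 99.2 in the 5 libraries.

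The strongest members, by the percentile in the library where each was weakest, were Bag1/Chmp5, Adam9/Tm2d2, Plag1/Chchd7, Spring1/Rnft2, Snap29/Pi4ka, Ltn1/Rwdd2b, Atm/Npat and Cpne9/Brpf1. Bag1, a co-chaperone of HSP70, and Chmp5, a subunit of the ESCRT-III membrane remodelling complex, have 258 bases between their starts, and their region chr4:40948068-40948559 covered both starts. The authors' fold enrichment of its peak was 27.3 and 29.2 in normal glucose and 30.3, 34.1 and 28.8 in high glucose. Its 5 summits lay within 8 bp of each other.

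Atm, the kinase that signals DNA double-strand breaks, and Npat, a co-activator of histone genes, share a region at chr9:53536583-53537151 that covers the 60 bases shown above. Its fold enrichment was 20.5 and 20.4 in normal glucose and 21.5, 25.0 and 22.2 in high glucose. The replication clamp gene Pcna and Cds2, a gene of phospholipid synthesis, share chr2:132253174-132253429. There fold enrichment was 17.7 and 18.9 in normal glucose and 18.7, 26 and 22.6 in high glucose. By fold enrichment, high-glucose replicates 2 and 3 stood above the other 3 libraries, while replicate 1 lay within the normal-glucose range. Ranked among the shared regions of each library, the region was at 96.4 and 93.1 in normal glucose and 96.8, 98.9 and 98.7 in high glucose.

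Among the weakest members were Trim17/H2aw, Elp3/Nuggc and Gatc/Triap1. Gatc, a subunit of a mitochondrial amidotransferase, and Triap1, part of a mitochondrial lipid transfer complex, share chr5:115341122-115341295. Its percentile was 1.28 in high-glucose replicate 1, the lowest, and 46.3, 36.2, 38.0 and 59.8 in normal-glucose replicates 1 and 3 and high-glucose replicates 2 and 3. Trim17/H2aw was at 0.221 in high-glucose replicate 3 and at 68.5 in high-glucose replicate 2. In all, 197 members (15.8%) were at or above the 90th percentile of every list and 8 were below the middle of every list. The first share was 16.2% for shared regions at 1 gene end, close to that of members, and 3.33% away from gene ends.

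Members ranked much as regions at 1 gene end did. The median percentile of members was 79.2 and 87.8 in normal glucose and 78.5, 82.2 and 80.1 in high glucose. It exceeded that of the 1-end regions by 0.665, 0.0843, 0.283, 0.801 and 0.218 points, a mean of 0.410 ± 0.307 (SD, n = 5 libraries, two-sided exact sign-flip permutation p = 0.063, adjusted 0.104). With only regions counted whose peaks cover at least 50% of the region in each library, this mean difference was -0.0639 points. Shared regions away from gene ends had medians of 59.6 to 79.0. The length covered by peaks was larger at members by 13, 14, 10, 7 and 11 bp (mean 11.0 ± 2.74 bp, exact p = 0.063, adjusted 0.104), and longer regions reach gene ends more easily, so this measure is tied to the rule.

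Within the members the head-to-head regions had median percentiles of 80.3 to 88.4, the head-to-tail regions 76.2 to 87.2 and the 10 tail-to-tail regions 41.3 to 80.2. At or above the 90th percentile of every list were 18.98% of the 669 head-to-head regions, 11.17% of the 206 head-to-tail regions and 0 of the 10 tail-to-tail regions, beside 16.8% of 1-end regions at a head.

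**Figure D4:**
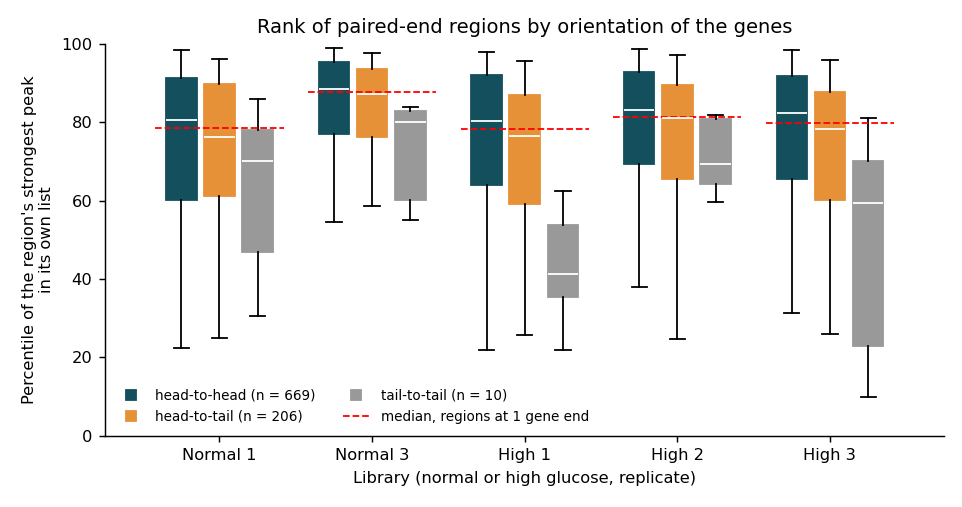
Percentile of the strongest peak in its own list (y axis) for head-to-head, head-to-tail and tail-to-tail members in each of the 5 libraries (x axis). Boxes span the quartiles with the median in white, whiskers the 5th to 95th percentiles, and red dashes are the medians of shared regions at 1 gene end; head-to-head medians lie between 80.3 and 88.4.

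The gene lists differed in how many of their genes lay at members, and lists of basic cell maintenance had the higher shares. An end of 2314 protein-coding genes, 11.2% of 20665, lay at a member. The lists were chosen with results of these data known and either end of a gene counts, so shares are a description. Aminoacyl-tRNA synthetases, which charge transfer RNAs, had 15 of 37 genes at members (40.5%). DNA repair and replication had 38 of 108 (35.2%), oxidative phosphorylation 28 of 83 (33.7%), the mitochondrial ribosome 26 of 78 (33.3%) and core histones 21 of 66 (31.8%). Genes of the cilium and centrosome had 33 of 112 (29.5%), a list that took in all Ttc genes, not all of which act at cilia. Chaperones had 22 of 85 (25.9%), splicing and RNA polymerase 31 of 124 (25.0%) and the proteasome 11 of 47 (23.4%).

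The cytosolic ribosome had 13 of 80 genes at members (16.2%) and glycolysis and glucose uptake 4 of 29 (13.8%), namely Aldoc, Pfkm, Tpi1 and Mlx. Shares were below that of all genes for Zfp zinc finger genes (27 of 388, 6.96%), cushion and valve development (3 of 56, 5.36%) and extracellular matrix (2 of 43, 4.65%). These lists were not closed: any shared open region lay at an end of 64.3% of the cushion and valve genes, 46.5% of the matrix genes and 46.6% of the Zfp genes, beside 36.3% of all genes. The same share was 86.5% for aminoacyl-tRNA synthetases and 71.3% for DNA repair and replication, so these lists were high at shared gene ends of any kind. No gene of the endothelial (15), heart muscle (14) or blood (11) lists was at a member. Any shared open region lay at an end of 0, 2 and 1 of these genes in that order.

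How close genes lie differed between the lists as well. Another gene's end lay within 1 kb for 25.6% of all genes, and 2222 of those 5295 genes were at members. For DNA repair and replication the values were 56.5% and 62.3%, for aminoacyl-tRNA synthetases 45.9% and 82.4%, and for cilium and centrosome 39.3% and 72.7%. For core histones they were 66.7% and 43.2%, for the proteasome 38.3% and 55.6%, and for cushion and valve development 10.7% and 33.3%. The part of this spacing in the shares at members was not tested.

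**Figure D5:**
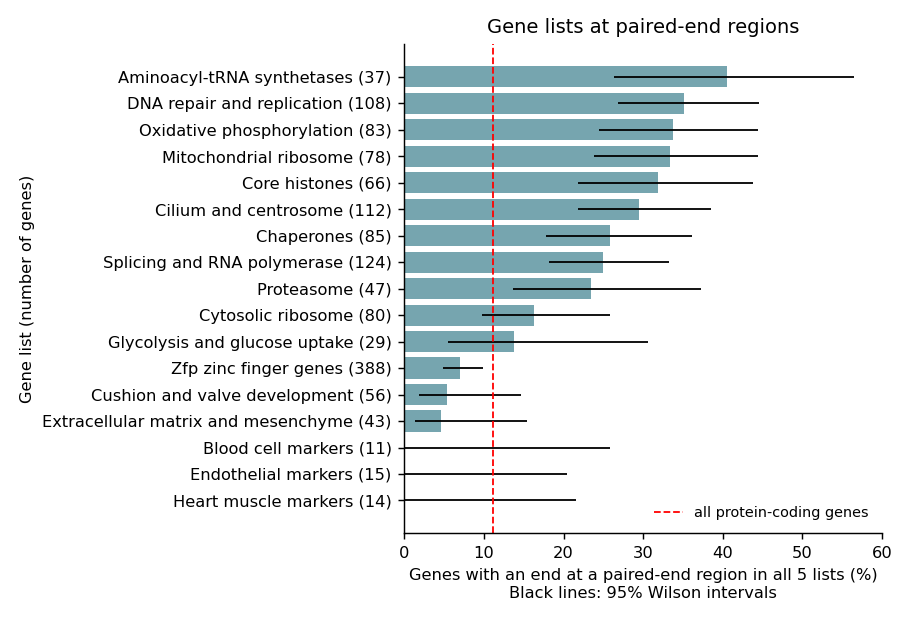
Percent of the genes of each list with an end at a member (x axis) for 17 gene lists (y axis, list sizes in parentheses). Black lines are 95% Wilson intervals, which cover counting error only, and the red dashed line is the 11.2% of all protein-coding genes; aminoacyl-tRNA synthetases are highest at 40.5%.

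Several members joined genes of 2 lists. Mrps12/Sars2 pairs a mitochondrial ribosomal protein with the mitochondrial seryl-tRNA synthetase, Mrpl47/Ndufb5 and Ndufs6/Mrpl36 pair a mitochondrial ribosomal protein with a complex I subunit, and Ndufaf2/Ercc8 pairs a complex I assembly factor with a repair gene. Mrps12/Sars2 was uneven between libraries, with percentiles of 70.4 and 50.7 in normal glucose and 21.6, 77.1 and 58.0 in high glucose.

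Of 22 gene pairs looked up because they are known or likely to share a promoter, 16 had a member region (72.7%). Of all head-to-head pairs with ends within 1 kb, 74.5% were open in all 5 libraries. These shares are of unlike measures and sets. The looked-up pairs include some of unknown strand and some with ends over 1 kb apart, and a member is a merged region. Hspd1/Hspe1, the mitochondrial chaperonin and its co-chaperonin, share a region at percentiles of 93.6, 97.0, 89.95, 94.8 and 96.9. Ppat/Paics, of purine synthesis, was at 95.5 or above in every library. Gart/Son and Prkdc/Mcm4 each had 2 member regions. The 2 Gart/Son regions were at 96.3 or above and at 69.7 or above in every library.

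Brca1/Nbr1 and Trp53/Wrap53 had their member region to the side of the stretch between the starts. For Brca1, a gene of homologous recombination, the region chr11:101552583-101552950 reached percentiles of 79.0, 81.1, 86.1, 85.4 and 61.7. For Trp53, the p53 tumour suppressor gene, chr11:69579132-69579488 was 860 bp from the farther gene's end and at 97.6, 90.2, 89.5, 89.7 and 89.7. The 6 pairs without a member were Col4a1/Col4a2, Surf1/Surf2, Tk1/Afmid, Rad51c/Tex14 and, with ends over 1 kb apart, Tbp/Psmb1 and Thra/Nr1d1. Paired-end regions of the collagen IV genes Col4a1 and Col4a2, which encode basement membrane chains, were in at most 3 lists, and none was in high-glucose replicate 1.

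Core histone members ranked low. The 21 histone genes lay at 13 regions, and 9 of these held 2 histone genes, such as H2bc7/H2ac7, H2ac12/H2bc12, H2ac22/H2bc22 and H3c3/H2bc3. The median of their lowest percentiles was 26.9, beside 67.5 for all members. Other lists were low as well: it was 11.9 for the 2 extracellular matrix regions and 23.9 for the 5 glycolysis regions. It was 33.3 for the 13 cytosolic ribosome regions and 40.9 or above for the remaining lists with members. H2bc7/H2ac7 was at 61.5 and 84.0 in normal glucose and 71.5, 68.6 and 79.9 in high glucose. Histone genes are near-identical copies, and reads that fit several copies may be lost or split. The handling of such reads is not given in the sources used, and whether it bears on these ranks was not tested.

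Of the 3 cushion and valve genes, Hey1, a Notch effector, lay at a member with a gene model as its neighbour, at percentiles of 94.3 to 96.3. Erbb3, a neuregulin receptor of the cushions, was 964 bp from a region at the head of Pa2g4, which was at 96.6 to 99.5. B9d2/Tgfb1 is a head-to-tail region and was at 27.9 and 86.6 in normal glucose and 55.8, 80.8 and 82.6 in high glucose. The extracellular matrix genes were Lamb2, beside Usp19, and Loxl3, beside Dok1, with lowest percentiles of 18.3 and 5.61. The first region lay over the head of Usp19 and 5 bp from the tail of Lamb2. The second lay over an end of Dok1 and 481 bp from an end of Loxl3, both of unknown strand.

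Base composition was compared over the 300 bases of RefSeq promoters, from 250 before to 50 after the start. The forward-strand genes of head-to-head members (588 promoters, each counted once) had a median GC content of 63.7%, close to the 63.3% of genes at 1-end shared regions (4143 promoters), beside 56.7% for all genes (16457). The ratio of observed to expected CpG was 0.860, 0.811 and 0.597 in that order. The ETS motif CCGGAAG was in 29.8% of the head-to-head promoters, 19.3% of the 1-end promoters and 12.3% of all. The YY1 motif AAGATGGC was in 8.84%, 4.83% and 3.21%. All motifs were searched on both strands. A head-to-head window can also hold the start or part of the partner gene, so it differs in content from a 1-end window. The part of this in the shares was not tested.

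The GC box was in 70.7%, 75.5% and 47.3%, and the CCAAT box in 43.2%, 42.9% and 39.1%. The TATA box TATAAA was in 3.74%, 5.6% and 13.5%, the AP-1 motif TGANTCA in 2.89%, 4.2% and 7.12%, and the TEAD motif ACATTCC in 1.36%, 2.41% and 3.36%. The NRF1 motif GCATGCGC was in 5.95%, 7.05% and 3.66%, the E-box CACGTG in 10.2%, 11.2% and 7.97%, the cAMP response element in 3.74%, 3.60% and 2.40% and the ZNF143 motif ACTACAATT in 1.36%, 0.893% and 0.577%. Between the starts themselves, 258 different stretches of 30 to 250 bases were read. Chromosome 18 was left out, as were stretches that no promoter window of the pair's genes held whole. Of these, 125 (48.4%) held a GC box and 94 (36.4%) a CCAAT box, 49 of them with 2 or more, and 67 stretches held none of the 11 motifs.

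Glucose was compared over libraries. The 2275 paired-end regions were drawn from the same 5 lists, and 413 of them were in only 1 list. A longer list therefore raises its own share, so this comparison is tied to list length. The share of these regions holding a peak was 69.8% and 90.1% in normal-glucose replicates 1 and 3. It was 67.1%, 75.3% and 71.8% in high-glucose replicates 1, 2 and 3. The means were 79.9 ± 14.3% (SD, n = 2) and 71.4 ± 4.15% (SD, n = 3), and the ranges overlapped. High minus normal glucose was -8.52 points (two-sided exact permutation p = 0.6, adjusted 0.6; the smallest p for 2 against 3 libraries is 0.2). The longest list, normal-glucose replicate 3, sets this value: without it the difference was 1.45 points, and with lists of equal length 1.52.

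To compare ranks, the 12139 shared regions were ranked against each other in each library, which gives lists of equal length. On this scale the median rank of members was 60.5 and 61.0 in normal glucose and 62.1, 64.4 and 64.0 in high glucose. Every high-glucose library was above both normal-glucose libraries. The difference was 2.78 points (63.5 ± 1.22 against 60.7 ± 0.361, SD, n = 3 and 2, two-sided exact permutation p = 0.2, the smallest possible, adjusted 0.25). Regions at 1 gene end moved by a similar 2.69 points, while those away from gene ends were at -3.53. The 3 classes share 1 ranking, so their moves are not independent of each other.

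Of the members, 179 (14.4%) ranked higher in every high-glucose than in any normal-glucose library, beside 11.9% of all shared regions, and 122 (9.81%) ranked lower in every one, beside 11.5%. For 1-end regions the shares were 13.9% and 9.36%, close to those of members. Among paired-end regions in any list, 7 (0.308%) were in all 3 high-glucose lists and neither normal-glucose list, beside 0.17% of all regions (82). The reverse held for 46 (2.02%), beside 3.72% (1798). The criteria are unlike, so the counts are not compared with each other. The first needs all 3 high-glucose lists and absence from the longest list. The second needs only both normal-glucose lists, which include the longest. Among the 7 were Zfp36l1/Gm52006, Bysl/Gm20517/Med20, Slc30a7/Extl2, Hps4/Srrd, Emc3/Fancd2 and Usf2/Lsr.

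The members that stood farthest apart were chosen for that difference, so their values carry no test. Mrpl49/Fau, of the mitochondrial and cytosolic ribosome, ranked at 7.57 and 35.4 in normal glucose and at 71.8, 71.3 and 65.9 in high glucose. Eif3k/Map4k1, with a translation initiation subunit, ranked at 36.2 and 39.3 against 86.5, 85.6 and 71.5. Atg13/Harbi1, with an autophagy initiation gene, ranked at 1.14 and 2.27 against 46.6, 38.9 and 47.1. In these 3 pairs all high-glucose libraries were well above both normal-glucose libraries.

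In the other direction, Nudt5/Cdc123 ranked at 40.4 and 62.8 in normal glucose against 0.873, 13.1 and 11.2 in high glucose. Dtx3/Pip4k2c ranked at 76.4 and 61.9 against 25.1, 26.6 and 14.5, and Fam114a1/Tlr6, with a Toll-like receptor gene, at 55.4 and 60.2 against 19.1, 16.8 and 25.2. The widest span over libraries, 83.2 points at Mrpl47/Ndufb5, did not go with glucose: its ranks were 6.13 and 83.5 in normal glucose and 58.8, 70.0 and 89.3 in high glucose.

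By gene list, 5 of 12 proteasome regions ranked higher in every high-glucose library and 1 lower, beside 179 and 122 of all 1244 members. The 5 were Mrpl32/Psma2, Psmg1/Brwd1, Psmb9/Tap1, Cep76/Psmg2 and Dnajc2/Psmc2. This list is given first because its share ranked higher was the largest of the lists. Lists share regions: Mrpl32/Psma2 also counts for the mitochondrial ribosome, Cep76/Psmg2 for cilium and centrosome and Dnajc2/Psmc2 for chaperones. For splicing and RNA polymerase the counts were 8 and 3 of 39 regions, for DNA repair and replication 6 and 3 of 42, for the mitochondrial ribosome 6 and 2 of 26 and for aminoacyl-tRNA synthetases 2 and 4 of 14. They were 5 and 2 of 22 for chaperones, 2 and 3 of 29 for oxidative phosphorylation and 3 and 1 of 13 for the cytosolic ribosome. Of the 5 glycolysis regions none was apart in either direction.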

How the data were processed

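ATAC-seq peak lists of 6 libraries were used, 1 list for each library. Per the submitters' processing notes, which give no roles or settings, the tools in alphabetical order included Bowtie 1.0.0, cutadapt 1.0, DiffBind 1.12.3, FastQC, MACS2 2.1.0, Picard 1.90 and SAMtools 0.1.19, and the build was mm10. A shift for the transposase offset is not given in the sources used. Deposited values per peak are a summit offset, a score, a ratio (fold enrichment) and −log10 values of p and q, all from the authors' peak caller. In no deposited list was a −log10 q below 1.30. The lists hold no counts, so a list's length can reflect depth.

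Peaks of 5 libraries on autosomes were merged where they overlapped by 1 bp or more (48279 regions, checked with bedtools 2.31.1). Gene ends were the start and end of 20665 protein-coding autosomal genes in RefSeq GRCm38.p6. Strand came from the RefSeq promoter table. Readthrough gene models count as genes. Percentiles rank −log10 p within a list. Exact sign-flip tests over 5 libraries and exact permutation tests of 2 against 3 were two-sided, adjusted by Benjamini-Hochberg over 5 tests. Members, gene lists, known pairs and tests were chosen with earlier results of these data known. Named were the 8 strongest and 4 weakest members, known pairs, those nearest the 1 kb limit, the strongest of each list and those apart by glucose or over libraries. The last 2 kinds, the other named pairs and the 10 pairs whose sequences are shown were chosen after their values were seen. The rule also names the 5 members with the most genes, which are not described, and some members that it selects are not reported here. Alternatives were −log10 q of at least 5, equal list length (21807 peaks), 500 bp and 2 kb windows, summit distance, cover of 50% of the region, merging within 200 bp, proper symbols only, all 6 libraries, each library left out and a replicate block. Head-to-head members against 1-end regions at a start were added after seeing the data. The region rule was tested on simulated data. Tests ran in SciPy 1.17.1 with pandas 2.3.3 and numpy 2.4.6, and plots in matplotlib 3.10.9, under Python 3.11.15.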

Additional observations from a re-analysis of the deposited data

Results flagged for a closer look

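Normal-glucose replicate 2, which entered no comparison, had 66 peaks, 52 of them on autosomes and 14 on the mitochondrial genome. Of its autosomal peaks 8 lay in members, at 6030458C11Rik/Drosha, Gart/Son, Clpp/Alkbh7, Plag1/Chchd7, Dnaaf5/Prkar1b, Cpne9/Brpf1, Adam9/Tm2d2 and Atm/Npat. This signal was in a library outside the main measurement, and there was no control for it. The authors' fold enrichment of the 8 peaks ran from 4.71 at Clpp/Alkbh7 to 8.98 at Adam9/Tm2d2. Of the 8 strongest members 4 held such a peak. In the other 5 libraries the 8 regions were at percentiles of 87.7 or above. Members are 1244 of the 12139 shared regions. Peaks of this library in other shared regions were not counted, so whether members are favoured cannot be told.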

How the results depend on the processing

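The count of members was 969 to 1613 under thresholds, windows, list lengths, merging and gene choices other than those named next, and 1239 to 1327 with 1 library left out. It was 745 where peaks had to cover at least 50% of the region and 8 with all 6 libraries. At −log10 q of at least 5, 969 of the 1244 members were kept. The occupancy difference turned from -8.52 to 1.52 with equal list length and to 18.01 with all 6 libraries, and ran from -19.3 to 1.45 with 1 library left out, positive only without normal-glucose replicate 3. The rank difference from 1-end regions was -0.0639 where peaks had to cover 50% of the region and 0.0908 at equal list length. With head-to-head members against 1-end regions at a start it was 1.06. The rank difference between glucose levels stayed positive in every alternative run, at 2.31 to 3.79, and the difference in openness between head-to-head and tail-to-tail pairs was 73.8 to 82.3 points. The latter was not computed for cover of 50% of the region or merging within 200 bp, since pairs were scored from peaks and not from regions, nor for all 6 libraries or the replicate block. With all 6 libraries, rank and width differences were not computed either. Deviations of same-numbered libraries had correlations of -0.0629 and 0.0685. With only 2 normal-glucose libraries, the other-numbered value of the same high-glucose library is fixed at the opposite sign. These correlations therefore cannot decide whether the numbers pair the libraries. The replicate block gave -10.5 points for occupancy and 2.31 for rank. With 5 libraries no test could pass 0.05, and no read depth is known.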
